A study of Mus musculus with 32 samples.

Results

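The genes described here encode enzymes and readers that write, remove or bind DNA methylation and histone marks, together with the motor proteins that move nucleosomes. They were measured in cloned mice, in liver and in spleen. Such mice come from somatic nuclear transfer, in which the nucleus of a body cell is placed into an egg without its own nucleus. The genes were found by symbol: every row named Dnmt, Tet1 to Tet3, Mbd, Hdac, Sirt, Kdm, Kmt2, Setd, Suv39, Ezh, Cbx, Chd, Smarc, Prmt or Kat with a suffix. This rule found 68 genes on 104 rows, out of 9026 named genes and 12760 named rows in a table of 20794 rows. Of these, 64 belong to families of chromatin genes, although not every product acts on chromatin, such as the mitochondrial Sirt3. The other 4, Chdh, Katna1, Katnal2 and Katnbl1, share only the letters of their symbols: the first is the choline dehydrogenase gene and the Katn genes encode katanin proteins that cut microtubules. No row carried a Tet, Kmt2 or Setdb symbol, nor Dnmt3b, Hdac1, Suv39h1 or Kat2a.

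Total RNA was hybridised on 2-colour arrays, with 1 cloned mouse in one dye and a pool of control RNA in the other. The 32 arrays formed 4 groups of 8: wildtype clones ("wt cloned") and Dll1 clones ("Dll1 cloned"), each in liver and in spleen. The labels call the pools "wt" and "Dll1 het". Each group held 4 mice with 2 arrays each, the dyes exchanged between both arrays, and liver and spleen came from the same 8 mice. All clones and pools were 129/SvJ males aged 18 to 19 weeks. Wildtype clones were set against a wildtype pool and Dll1 clones against a pool of Dll1 heterozygotes, so a genotype difference below is a difference between 2 ratios with different denominators. Dll1 encodes a ligand of the Notch receptors. The study's design note calls the conventionally bred mice of that genotype transgenic. No label names the allele, the donor cells or the number of clone lines. RNA of 6 animals made up a pool by the labelling protocol, whereas 4 animals are named for each pool in the sample labels. Each pool counts as 1 control sample, and its own spread between animals is left out of every test below.

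DNA methyltransferases add methyl groups to cytosine in CG dinucleotides: Dnmt1 copies the pattern after replication, and Dnmt3a sets new methylation, with Dnmt3l as a partner that lacks catalytic activity. Methylated DNA and modified histones are read by proteins such as the MBD and HP1 families, which recruit deacetylases and remodelling complexes. The egg must reset this pattern in the transferred nucleus, and incomplete resetting is known from cloned embryos, which is the background for looking at these genes in adult clones. In adult liver most cells rarely divide, whereas spleen holds dividing lymphoid and, in mice, erythroid cells.

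Each value is a log2 ratio, clone over pool, averaged over both arrays of a mouse and over all probes of a gene, as the labels' word order was read. A value of 1 is a doubling and 0 is no difference. A ratio gives no level, so the labelled organs could not be checked by the level of their marker genes. Between 59 and 230 probes per liver array and between 248 and 2859 per spleen array had no value. The median SD between mice over the 68 genes was 0.0834 in wildtype liver and 0.0956 in Dll1 liver. In spleen it was 0.248 in wildtype and 0.394 in Dll1 mice, so the same difference was measured far less precisely there. In Dll1 spleen, Kdm1a had no value on both arrays of any mouse. Setd4 had values in only 2 wildtype spleens and was not tested there.

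The direction of the ratios was not settled by the data. In wildtype liver, arrays with the clone in Cy5 correlated with each other at a mean of 0.60 over the rows of these genes, and arrays with the clone in Cy3 at 0.68. Both arrays of the same mouse correlated at -0.59, with a range of -0.80 to -0.37, and the means of both orientations at -0.85. For the histone deacetylase gene Hdac11 the mean ratio was -0.34 in Cy5 and 0.55 in Cy3, and for Dnmt3l it was -0.54 and 0.64. The orientation means of these genes correlated at -0.35 in Dll1 liver, -0.08 in wildtype spleen and -0.16 in Dll1 spleen, and over all probes at -0.70 in wildtype liver, -0.26 in Dll1 liver, -0.38 in wildtype spleen and -0.30 in Dll1 spleen. A dye effect specific to each gene and ratios not yet turned to 1 direction cannot be told apart here. Values below read all ratios as turned already, which cancels a dye effect in each mouse's mean. The value with the Cy3 arrays turned is given beside many of the results. A dye effect adds up in such a turned mean instead of cancelling, so a turned value, count or p-value can hold it in full. "Higher" and "lower" refer to the first reading, as does each p-value or count not marked as turned.

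**Figure D1:**
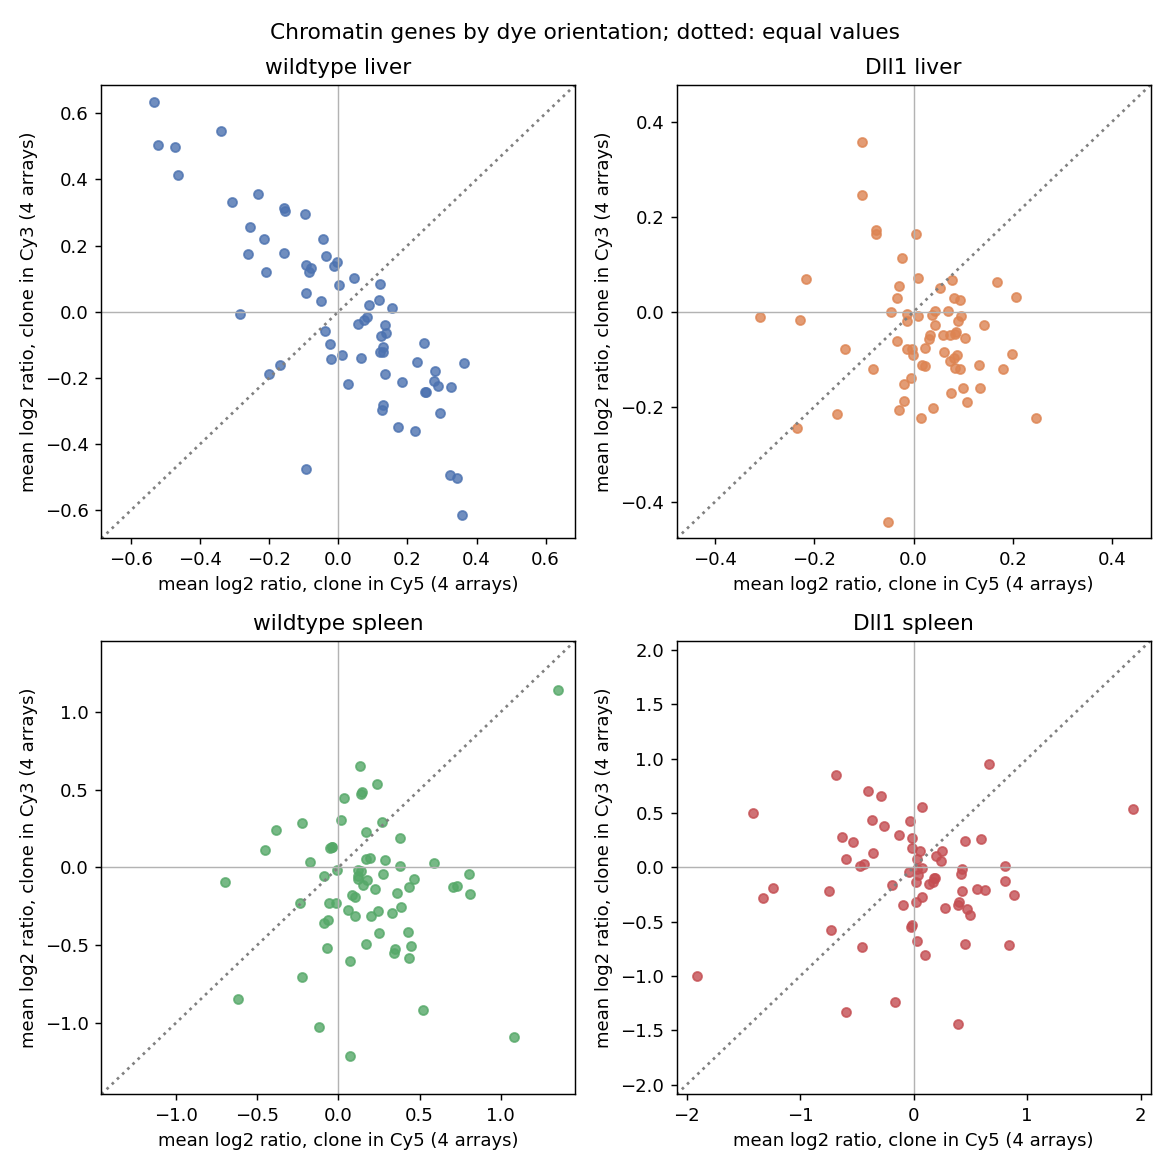
Mean log2 ratio of each of the 68 genes on the 4 arrays with the clone in Cy5 (horizontal) against the 4 arrays with the clone in Cy3 (vertical), 1 panel per group, with the dotted line at equal values; axes differ between panels. In wildtype liver the points fall along the opposite diagonal (r = -0.85), while the point farthest to the right in both spleens, with both values above 0, is Kdm5d.

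Gene names also rest on a reading of the table. A row was named by the platform's gene for the probe 11 positions before it, the offset at which rows of the same gene resembled each other most. With it, rows of 1 gene correlated at a mean of 0.056 over 2258 pairs, against -0.00069 with the numbers taken as they stand and at most 0.031 at any other offset tried. That mean is low, so each name below is the best available reading and not a checked identity. Of the 68 genes, 22 had more than 1 row. Their rows agreed in sign for 13 of 22 genes in wildtype liver, 8 in Dll1 liver, 10 in wildtype spleen and 8 in Dll1 spleen.

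None of the 68 genes passed an adjusted p of 0.05 in any of the 10 comparisons (limma, Benjamini-Hochberg adjustment over all features). In wildtype liver, 0 of 68 passed, against 0.153% of all 16948 features (26, each of them lower). For the mean of both genotypes in liver the background was 0.172%, for liver minus spleen in wildtype mice 0.0973%, and in the other 7 comparisons 0 features passed. At an unadjusted p under 0.05 stood 4 of 68 genes in wildtype liver, where 12.0% of all features did, and 3 of 68 in Dll1 liver against 5.71%. The corresponding numbers were 5 of 67 in wildtype spleen against 6.15%, and 6 of 67 in Dll1 spleen against 4.88%. Averaged over both genotypes, 5 of 68 genes stood under it in liver against 13.2%, and 4 of 66 in spleen against 8.18%. The share of these genes was below that of all features in both livers and for the mean of both spleens, and above it in each spleen group. When all 16 mouse and organ values entered 1 fit with a common spread, 6 of 67 genes passed in Dll1 spleen (Hdac11, Kat14, Katnal2, Kdm5c, Smarcb1 and Smarcd2), against 7.30% of all features, and 3 of 66 for the mean of both spleens (Hdac11, Kdm5d and Smarcb1), against 4.54%. That fit pools the spread of livers and spleens.

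With the direction of the titles, the ratios of most of these genes in liver were small. In wildtype liver 60 of 68 genes lay within 0.1 of 0 on the log2 scale, or 88.2%, against 84.1% of all features, and in Dll1 liver 55 of 68, or 80.9%, against 80.1%. In spleen 26 of 67 did so in wildtype and 22 of 67 in Dll1 mice, or 38.8% and 32.8%, against 42.9% and 28.3% of all features. The median over the genes was 0.011 in wildtype liver and -0.0079 in Dll1 liver, against 0.0075 and -0.0035 over all features. It was 0.031 in wildtype and 0.018 in Dll1 spleen, against 0.013 and 0.007. By mouse, the median over the genes ran from 0.0066 to 0.017 in wildtype liver, -0.042 to 0.022 in Dll1 liver, -0.0075 to 0.10 in wildtype spleen and -0.14 to 0.11 in Dll1 spleen. With the Cy3 arrays turned, 21 of 68 genes lay within 0.1 of 0 in wildtype liver, or 30.9%, against 30.3% of all features, and 50 of 68 in Dll1 liver, or 73.5%, against 65.1%. In spleen 18 of 67 then did so in wildtype and 15 of 67 in Dll1 mice, or 26.9% and 22.4%, against 23.0% and 21.9%. The small ratios in wildtype liver were thus a feature of one reading, which these genes shared with the whole array under both.

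**Figure D2:**
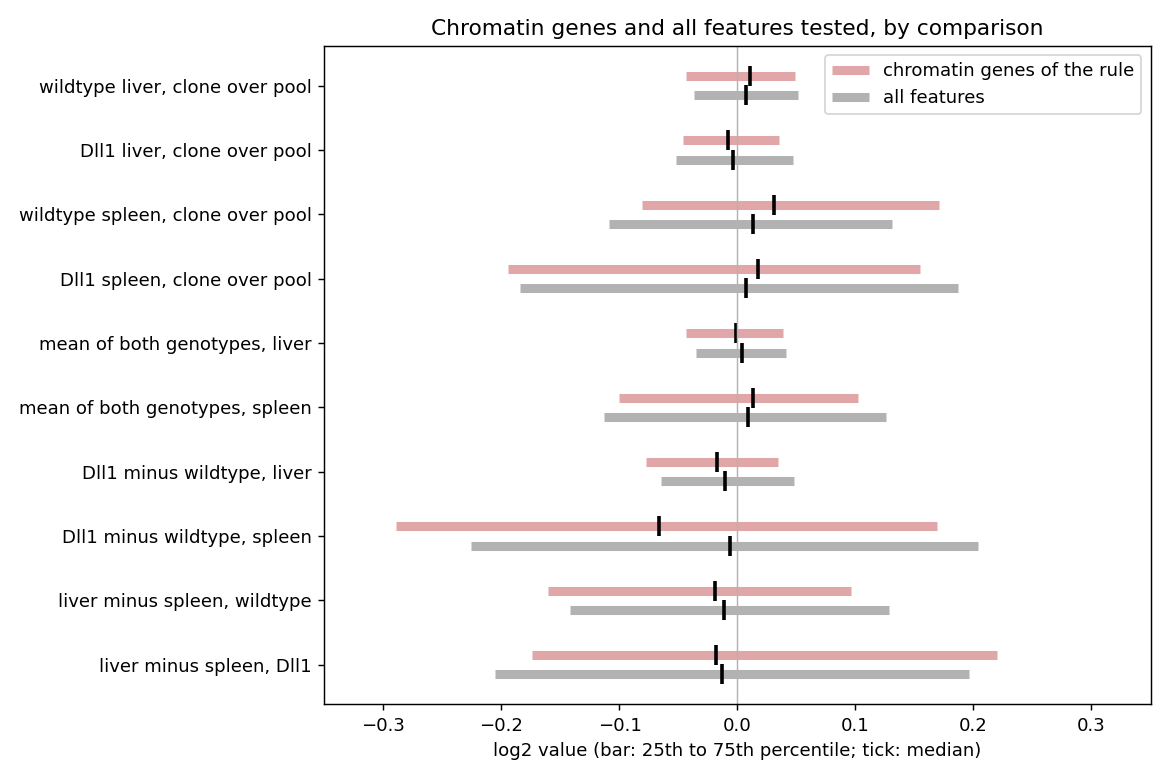
Median (tick) and 25th to 75th percentile (bar) of the log2 values of the 68 genes and of all features tested, by comparison. The bars of the genes overlap those of all features in all 10 comparisons and are widest for Dll1 minus wildtype in spleen.

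**Figure D3:**
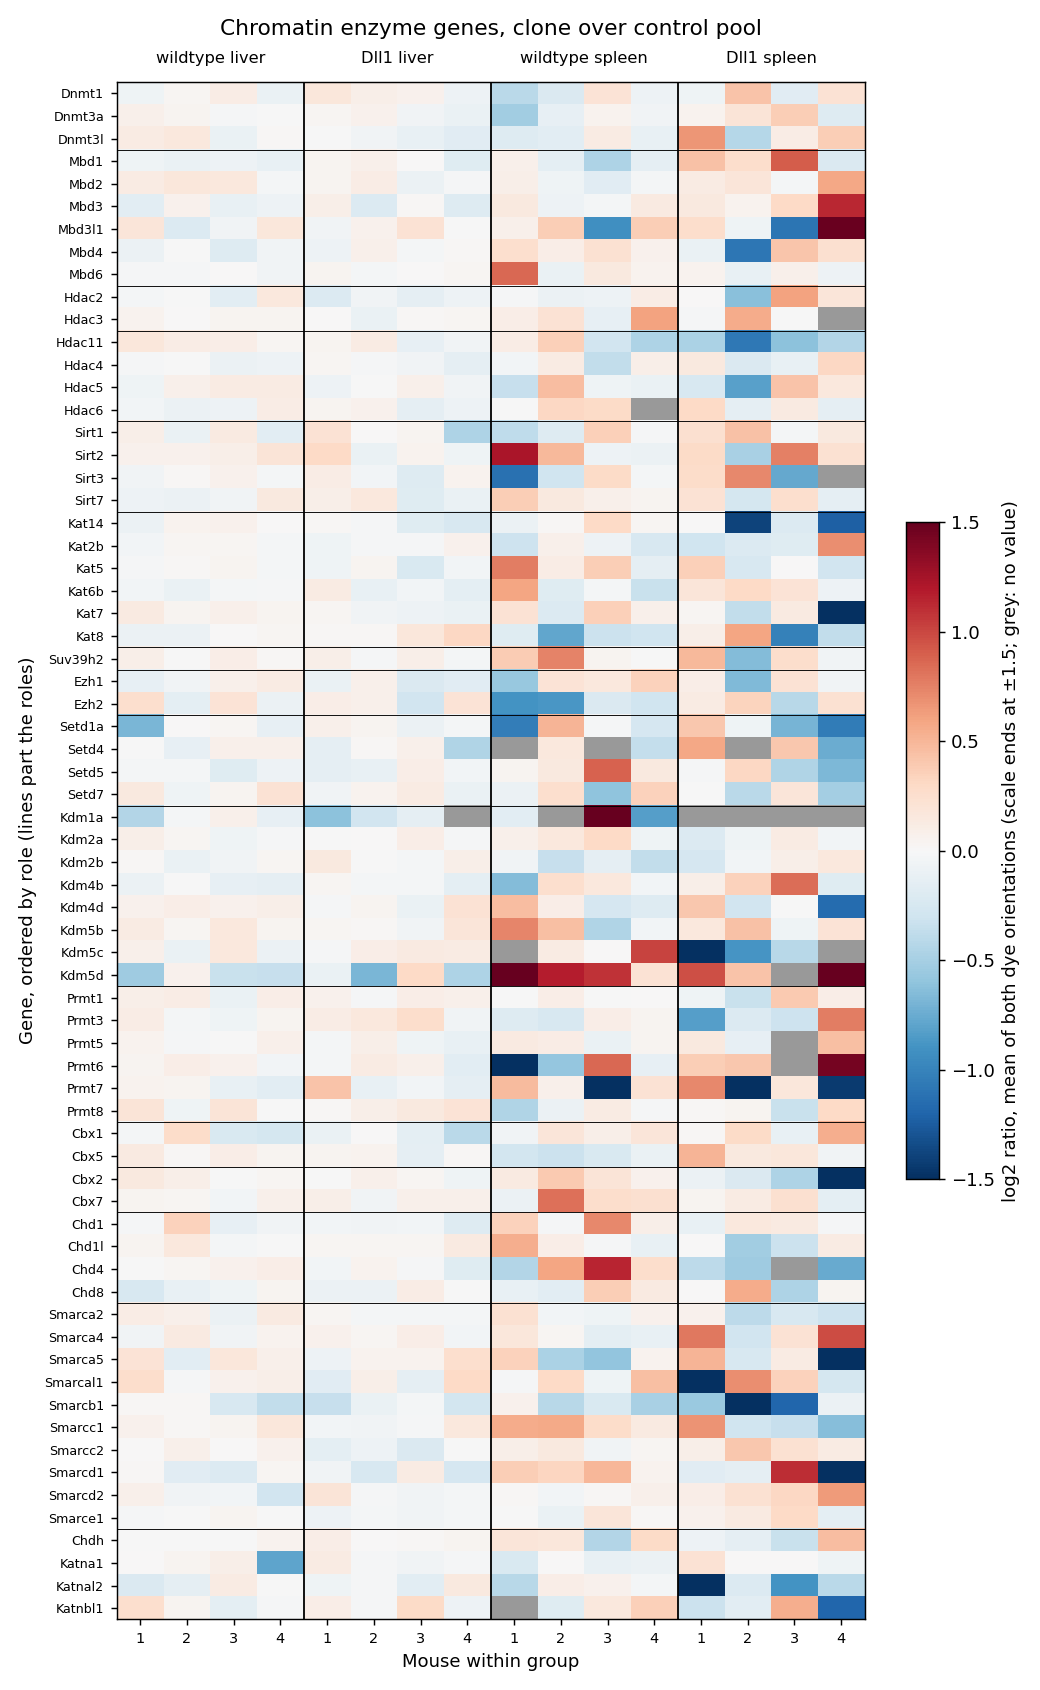
Log2 ratio, clone over pool, of each of the 68 genes (rows, ordered by role) in each of the 4 mice of the 4 groups (columns); red is higher in the clone, blue lower, grey no value. Signs follow the titles' direction. The liver columns are mostly pale, and Kdm5d is red in 7 of 7 spleens with a value.

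Counts of genes with all 4 mice on 1 side of 0 were also close to the background. In wildtype liver 6 genes lay below 0 in every mouse and 9 above, of 68, where 8.99% and 11.7% of all features did. Dll1 liver had 6 below and 4 above of 67, against 9.92% and 5.83%. In wildtype spleen the numbers were 4 and 7 of 63, against 7.03% and 9.25%, and in Dll1 spleen 4 and 3 of 59, against 7.61% and 8.81%. With the titles' direction no gene was on 1 side in all 8 livers or in all 8 spleens, where 1.76% and 1.16% of all features were below and above 0 in every liver, and 1.18% and 1.82% in every spleen. Between groups of 1 organ or 1 genotype, every mouse of one group lay above 0 and every mouse of the other below in 6 of 246 pairs of gene and groups, against 1.32% of all features, and turned in 16 of 246, against 6.75%.

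With the Cy3 arrays turned, which leaves any dye effect in each mouse's mean, the picture in wildtype liver differed. There, 37 of 68 genes passed an adjusted p of 0.05 by limma, 21 higher and 16 lower, or 54.4%, against 56.8% of all features (9631 of 16948). The share of these genes was thus close to that of the whole array. For the mean of both genotypes, 28 of 68 passed in liver and 6 of 66 in spleen, against 42.6% and 13.2% of all features. For Dll1 minus wildtype in liver 25 of 68 passed against 41.6%. For liver minus spleen in wildtype mice it was 17 of 67 against 22.7%, in a fit that did not pair the organs of a mouse. In Dll1 liver, wildtype spleen and Dll1 spleen taken singly 0 genes passed under this reading, against 0.112%, 1.54% and 0% of all features, and so too for the genotype difference in spleen and the organ difference in Dll1 mice, where 0% of all features passed. With the Cy3 arrays turned, 28 of 68 genes lay above 0 in every wildtype liver and 19 below, against 37.5% and 27.7% of all features. In Dll1 liver 16 and 6 of 67 did, against 21.2% and 13.3%, in wildtype spleen 18 and 3 of 63, against 24.8% and 16.3%, and in Dll1 spleen 11 and 6 of 59, against 15.4% and 15.7%. In all 8 livers 10 of 67 genes lay above 0 (Chd1, Chd8, Dnmt3a, Hdac3, Kat2b, Kdm4b, Mbd1, Prmt1, Smarcd2 and Suv39h2), against 8.82%, and Kdm5b below, against 3.31%. In all 8 spleens 7 of 57 lay above 0 (Dnmt3a, Kat14, Mbd3, Prmt1, Prmt7, Smarcb1 and Smarcd2) and 0 below, against 8.66% and 7.39%. Dnmt3a, Prmt1 and Smarcd2 were above 0 in all 16 mouse and organ values, 3 of 57 genes against 2.23% of all features, and 0 were below in all 16, against 1.59%.

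With the titles' direction the DNA methyltransferases lay near 0 in liver. Dnmt1, the maintenance enzyme, had -0.063, 0.028, 0.11 and -0.099 in the 4 wildtype livers and 0.17, 0.088, 0.06 and -0.081 in the 4 Dll1 livers. These values straddled 0 in both groups, at -0.0063 ± 0.093 (SD, n = 4) and 0.059 ± 0.10 (SD, n = 4), with 95% intervals by limma of -0.11 to 0.10 and -0.071 to 0.19. In spleen Dnmt1 had -0.40, -0.21, 0.20 and -0.073 in wildtype and -0.06, 0.42, -0.18 and 0.22 in Dll1 mice, and both groups overlapped. Their means were -0.12 ± 0.25 and 0.10 ± 0.27, with intervals of -0.44 to 0.20 and -0.32 to 0.52, which are far wider than in liver. Turned, Dnmt1 lay above 0 in every wildtype liver at 0.30 (adjusted p = 0.00246 by limma), and at 0.035 in Dll1 liver, 0.10 in wildtype spleen and -0.048 in Dll1 spleen.

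Dnmt3a, the de novo enzyme, was measured by 5 rows. It had 0.074, 0.038, -0.016 and -0.0017 in wildtype liver, 0.027, 0.063, -0.057 and -0.10 in Dll1 liver, -0.52, -0.12, 0.052 and -0.058 in wildtype spleen and 0.055, 0.19, 0.37 and -0.19 in Dll1 spleen. The group means were 0.024 ± 0.041, -0.018 ± 0.076, -0.16 ± 0.25 and 0.11 ± 0.24 in that order, and in each group mice lay on both sides of 0. The 5 rows disagreed in spleen with the titles' direction. Their means ran from -0.70 to 0.13 in wildtype and from -0.36 to 0.63 in Dll1 spleen. Turned, Dnmt3a lay above 0 in every mouse of all 4 groups, at 0.05, 0.10, 0.33 and 0.32, and at 0.33 over both spleens (adjusted p = 0.0409 by limma). Dnmt3l, the partner without catalytic activity, lay below 0 in all 4 Dll1 livers at -0.086 ± 0.07 (SD, n = 4), and at 0.05 ± 0.11 in wildtype liver. The difference between both genotypes was -0.14 ± 0.07 (SE) (adjusted p = 0.934, limma). In wildtype liver Dnmt3l turned lay below 0 in every mouse at -0.58 (adjusted p = 7.09e-05 by limma). The genotype difference was then 0.65 (adjusted p = 0.000676 by limma), so neither its sign nor its size is settled.

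Uhrf1, the protein that brings Dnmt1 to newly replicated DNA, is no gene of the rule but belongs to the partner list on DNA methylation. Its values were -0.41, -0.22, -0.52 and -0.85 in wildtype spleen and -0.12, -0.79, -0.30 and -0.54 in Dll1 spleen, below 0 in 8 of 8 mice. The means were -0.50 ± 0.26 (SD, n = 4) and -0.43 ± 0.29 (SD, n = 4), against 0.029 and 0.041 in the livers. Over both genotypes in spleen it lay at -0.47 ± 0.11 (SE, adjusted p = 0.437, limma) and did not pass. Turned in Cy3, Uhrf1 lay at 0.32 in wildtype and 0.15 in Dll1 spleen and at 0.23 over both, so its sign depended on the reading.

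The methyl-CpG binding protein family includes readers of methylated DNA, and Mbd2 and Mbd3 are subunits of the NuRD deacetylase complex. Mbd1 lay at -0.068, -0.10, -0.071 and -0.11 in the 4 wildtype livers, below 0 in each, with -0.087 ± 0.021 (adjusted p = 0.409, limma), and at 0.26 with the Cy3 arrays turned. Mbd2 was at 0.10 ± 0.091 (SD, n = 4) there, with 3 of 4 mice above 0 (adjusted p = 0.416, limma), and turned it lay above 0 in every mouse at 0.26 (adjusted p = 0.00256 by limma). Mbd1 lay higher in Dll1 than in wildtype spleen by 0.51 ± 0.25 (SE) (adjusted p = 0.871, limma), a difference that was -0.15 turned. Mbd4, which also repairs deaminated methylcytosine, had -0.092, -0.003, -0.19 and -0.054 in wildtype liver and 0.25, 0.10, 0.23 and 0.061 in wildtype spleen, so every liver lay below 0 and every spleen above. That organ difference was -0.24 ± 0.087 (SE) (adjusted p = 0.39, limma), and 0.55 with the Cy3 arrays turned. Mbd3 in Dll1 spleen had 0.15, 0.054, 0.29 and 1.13, above 0 in 4 of 4 mice, with 1 mouse far above the rest. Over both spleens it lay at 0.23 ± 0.13 (SE) (adjusted p = 0.677, limma). Mbd3l1 and Mbd6 lay at 0.024 ± 0.19 and -0.02 ± 0.026 in wildtype liver and varied more in spleen, where Mbd3l1 had 0.27, -0.065, -1.09 and 1.48 in Dll1 mice. Both genes lay below 0 in every wildtype liver when turned, at -0.12 and -0.075.

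Among the deacetylases, Hdac11, the only class IV enzyme, had the clearest separation from 0. In Dll1 spleen it had -0.48, -1.07, -0.61 and -0.44, below 0 in 4 of 4 mice, at -0.65 ± 0.29 (SD, n = 4) (adjusted p = 0.828, limma). Wildtype spleen had 0.12, 0.36, -0.29 and -0.46, on both sides of 0, and the groups overlapped. In wildtype liver it was 0.17, 0.11, 0.10 and 0.027, above 0 in each mouse, at 0.10 ± 0.06 (adjusted p = 0.395, limma), and Dll1 liver had -0.0029 ± 0.11. With the Cy3 arrays turned the values were -0.079 in Dll1 spleen and -0.44 in wildtype liver (adjusted p = 0.000149 by limma), the latter with its sign reversed.

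Hdac2, a class I deacetylase of the NuRD and Sin3 complexes, lay below 0 in all 4 Dll1 livers, at -0.21, -0.059, -0.13 and -0.071. The mean was -0.12 ± 0.07 (SD, n = 4) (adjusted p = 0.784, limma), against -0.0088 ± 0.13 in wildtype liver, -0.017 ± 0.093 in wildtype spleen and 0.042 ± 0.51 in Dll1 spleen. In wildtype liver its mean was -0.52 with the clone in Cy5 and 0.50 with it in Cy3. Turned, wildtype liver gave -0.51 (adjusted p = 0.000199 by limma) and Dll1 liver 0.088. Hdac3, the catalytic subunit of the NCoR complex, had 0.049, 0.009, 0.041 and 0.04 in wildtype liver, all above 0 and all small. With the titles' direction Hdac4, Hdac5 and Hdac6, class II enzymes, lay closer than 0.1 to 0 in both livers. None of them stood at an unadjusted p under 0.05 in any group under that reading. Turned, every wildtype liver lay below 0 for Hdac6 and Hdac5, at means of -0.44 and -0.10. Every Dll1 liver then lay above 0 for Hdac4, at 0.15.

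Sirtuins are deacetylases that consume NAD. Sirt1, a nuclear sirtuin, lay at 0.087, -0.10, 0.14 and -0.16 in wildtype liver, 0.22, 0.0095, 0.045 and -0.46 in Dll1 liver, -0.38, -0.19, 0.36 and -0.015 in wildtype spleen and 0.24, 0.44, -0.025 and 0.14 in Dll1 spleen. Each group straddled 0, and turned, Sirt1 lay above 0 in every wildtype spleen at 0.26. Sirt2 was above 0 in all 4 wildtype livers at 0.099 ± 0.062 (adjusted p = 0.405, limma), and at -0.20 with the Cy3 arrays turned. The mitochondrial Sirt3 lay at 0.00025 ± 0.054 and -0.017 ± 0.13 in the livers. When turned it lay at -0.26 in wildtype liver, below 0 in every mouse, and at 0.0026 in Dll1 liver. Sirt7, found in the nucleolus, was above 0 in the 4 wildtype spleens at 0.37, 0.15, 0.071 and 0.039.

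Of the 6 histone acetyltransferase genes, Kat8, which acetylates lysine 16 of histone H4, lay below 0 in every wildtype spleen. Its values there were -0.18, -0.78, -0.32 and -0.30, at -0.40 ± 0.27 (SD, n = 4) (adjusted p = 0.777, limma), and -0.30 with the Cy3 arrays turned. The sign of the mean thus held under both readings, but a mouse lay above 0 when turned, at 0.0135. Dll1 spleen had 0.083, 0.59, -1.01 and -0.37, which spanned the wildtype values. In Dll1 liver Kat8 was above 0 in 4 of 4 mice at 0.13 ± 0.14 (adjusted p = 0.784, limma), and 0.16 ± 0.075 (SE) above wildtype liver (adjusted p = 0.934, limma), a difference that was -0.33 turned. Kat8 then lay below 0 in every Dll1 liver, at -0.23. Kat7 was above 0 in the 4 wildtype livers and below 0 in 3 of 4 Dll1 livers, at 0.075 ± 0.042 and -0.046 ± 0.054, and both genotypes did not overlap. The difference was -0.12 ± 0.054 (SE) (adjusted p = 0.934, limma), and 0.28 with the Cy3 arrays turned. Kat14 had 0.008, -1.39, -0.20 and -1.22 in Dll1 spleen, with a pair of mice far below the others. When turned, it lay above 0 in each of these spleens, at a mean of 0.54. Kat2b, Kat5 and Kat6b did not stand at an unadjusted p under 0.05 in any group with the titles' direction. Kat2b and Kat5 lay above 0 in every wildtype liver when turned, at 0.12 and 0.13, and Kat6b below 0, at -0.16.

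Ezh2, the methyltransferase of Polycomb complex PRC2 that is abundant in dividing cells, had the smallest p among these genes in wildtype spleen. Its values were -0.89, -0.87, -0.22 and -0.30, below 0 in 4 of 4 mice, while Dll1 spleen had 0.12, 0.33, -0.42 and 0.23, with 3 of 4 above 0. Wildtype spleen was at -0.57 ± 0.36 (SD, n = 4), with a 95% interval of -0.97 to -0.17 (adjusted p = 0.762, limma), and Dll1 spleen at 0.066 ± 0.33. The wildtype mice split into a lower and a higher pair, and the Dll1 mice overlapped them. Its liver values straddled 0 at 0.055 ± 0.20 and 0.022 ± 0.21. Both orientations lay below 0 in wildtype spleen, at -0.12 in Cy5 and -1.03 in Cy3, so turning the Cy3 arrays gave 0.45. Ezh1, its close relative that is kept in resting cells, lay at 0.032 ± 0.41 in wildtype spleen with mice on both sides of 0.

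With the titles' direction genes of the cell cycle lay low in both spleen groups, as Uhrf1 did, whereas Ezh2 lay low in wildtype spleen only. In wildtype spleen 30 of 34 measured genes of a cell cycle list were below 0, with a median of -0.22 and medians by mouse of -0.25, -0.24, -0.25 and -0.36. In Dll1 spleen 25 of 33 were below 0, with a median of -0.18 and 0.019, -0.31, -0.16 and -0.14 by mouse, and in the livers the medians by mouse ran from -0.034 to 0.026 and -0.021 to 0.044. Erythroid genes lay below 0 as well, in 11 of 13 genes in wildtype and 12 of 13 in Dll1 spleen, with medians by mouse of -0.71 to -0.31 and -1.10 to -0.057. Turning the Cy3 arrays left 14 of 34 cell cycle genes below 0 in wildtype spleen, with a median of 0.051, and 20 of 33 in Dll1 spleen, with -0.063. The erythroid medians were then 0.17 and 0.044, above 0 in both spleens. At an unadjusted p under 0.05 and lower, with the titles' direction, stood 15 of the 34 cell cycle genes in wildtype spleen, where 2.96% of all features did, and 0 passed the adjusted threshold. Their part in the values of Ezh2 and Uhrf1 was not tested. In a whole organ, fewer cells of a type and less RNA per cell cannot be told apart.

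**Figure D4:**
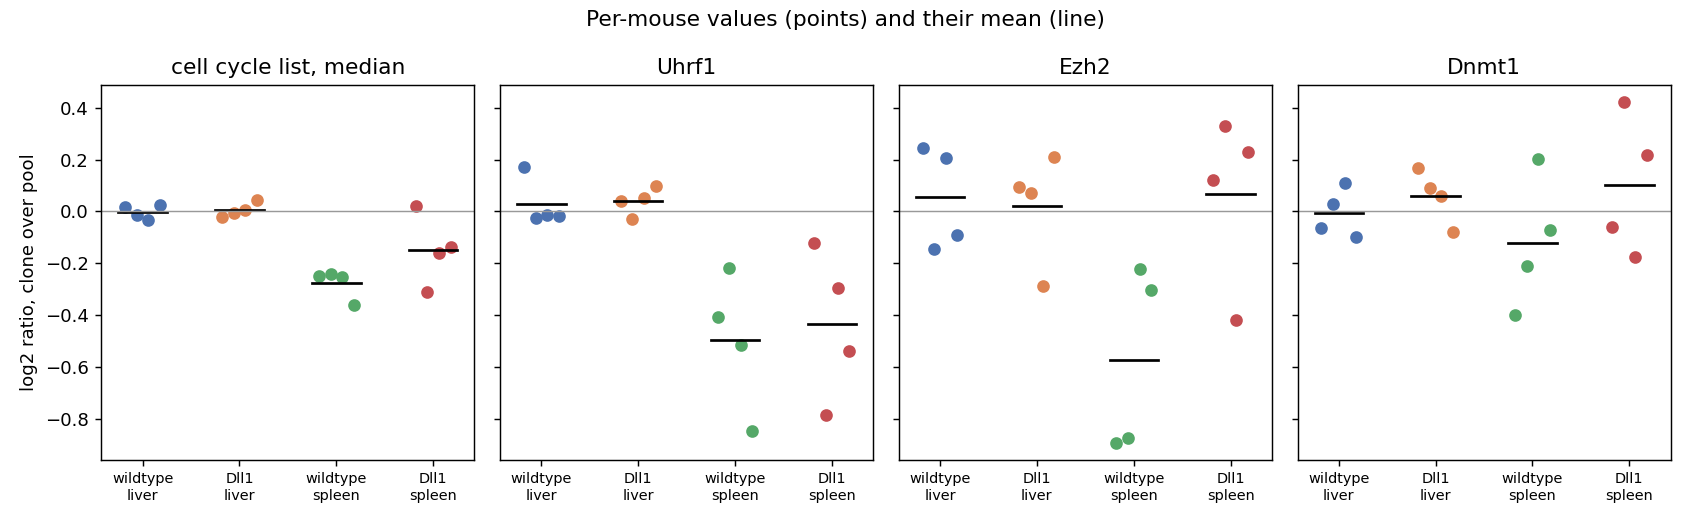
Median of the cell cycle list, and the values of Uhrf1, Ezh2 and Dnmt1, per mouse (points) with their mean (line), as log2 ratio of clone over pool in the 4 groups. With the titles' direction Uhrf1 lies below 0 in 8 of 8 spleens, Ezh2 in 4 of 4 wildtype spleens, and Dnmt1 on both sides of 0 in each group.

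Suv39h2, which methylates lysine 9 of histone H3, lay at 0.29 ± 0.35 in wildtype spleen and 0.012 ± 0.50 in Dll1 spleen, and its 2 rows disagreed, at 0.68 and -0.33 in the latter. Of the other SET domain genes, Setd5 was below 0 in every wildtype liver at -0.025, -0.025, -0.18 and -0.073 and above 0 in every wildtype spleen at 0.044, 0.14, 0.88 and 0.15. The organ difference was -0.38 ± 0.18 (SE) (adjusted p = 0.52, limma). Turned, Setd5 lay at 0.21 in wildtype liver and 0.43 in wildtype spleen, with mice on both sides of 0 in each. With the titles' direction its 2 rows differed in wildtype spleen, at 0.63 and -0.021. Setd1a, the catalytic subunit of a complex that methylates lysine 4 of histone H3, had -0.69, 0.002, 0.03 and -0.12 in wildtype liver, where 1 mouse stood far below the other 3. The genotype difference was 0.19 ± 0.14 (SE) (adjusted p = 0.934, limma). Setd4 and Setd7 did not stand at an unadjusted p under 0.05 in any group in which they were tested with the titles' direction. Setd4 lay above 0 in every wildtype liver when turned, at 0.25, and Setd7 in every Dll1 liver, at 0.24.

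With the direction of the titles, the lysine demethylases held the highest mean in both spleens and the lowest in Dll1 spleen. Turned, the highest were Kdm1a at 1.39 in 3 wildtype spleens and Prmt7 at 0.92 in Dll1 spleen, and the lowest in Dll1 spleen was Smarca5 at -0.96, so the order depended on the reading. Kdm5d lies on the Y chromosome and removes methyl groups from lysine 4 of histone H3, and Kdm5c is its counterpart on the X chromosome. The sequences of both promoters and of that of Ezh2 follow, since Kdm5d and Kdm5c had those means, Ezh2 had the smallest p in wildtype spleen, and the windows differ in CG dinucleotides, the substrate of the DNA methyltransferases. Each is the stretch of 250 bases before the annotated start, 5′ to 3′ on the gene's strand, from RefSeq (GRCm38.p6), with each CG in capitals. Kdm5d is at chrY:897538-897787, strand +, Kdm5c at chrX:152232977-152233226, strand + and Ezh2 at chr6:47595031-47595280, strand -.
Kdm5d: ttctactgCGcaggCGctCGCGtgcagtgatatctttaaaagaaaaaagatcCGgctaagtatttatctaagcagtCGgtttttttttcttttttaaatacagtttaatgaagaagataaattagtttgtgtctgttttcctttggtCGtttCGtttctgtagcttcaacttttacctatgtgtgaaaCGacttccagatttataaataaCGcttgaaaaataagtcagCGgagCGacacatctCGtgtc
Kdm5c: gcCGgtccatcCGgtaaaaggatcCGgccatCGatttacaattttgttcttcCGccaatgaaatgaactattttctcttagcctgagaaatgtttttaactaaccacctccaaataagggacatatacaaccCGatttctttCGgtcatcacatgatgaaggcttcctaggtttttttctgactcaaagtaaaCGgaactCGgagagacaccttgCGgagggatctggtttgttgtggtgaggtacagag
Ezh2: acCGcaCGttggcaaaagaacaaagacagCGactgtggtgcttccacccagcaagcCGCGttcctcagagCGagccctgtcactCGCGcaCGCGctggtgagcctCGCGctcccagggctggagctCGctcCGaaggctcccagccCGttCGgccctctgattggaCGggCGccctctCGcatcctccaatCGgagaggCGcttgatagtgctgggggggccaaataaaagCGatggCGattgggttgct
These windows hold 13, 10 and 23 CG dinucleotides, where the median promoter of the same length holds 6, and 92.1% of all 32851 hold at least 1. Of all promoters, 31.5%, 37.8% and 13.3% hold at least as many. CG is the same on both strands. The RefSeq table had a promoter for 56 of the 68 genes, and methylation was not measured in this series.

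Kdm5d had 2.51, 1.18, 1.09 and 0.21 in the 4 wildtype spleens and 0.97, 0.42 and 2.19 in the 3 Dll1 spleens with a value. All 7 lay above 0, and each group spread over about the size of its mean. The means were 1.25 ± 0.95 (SD, n = 4) and 1.19 ± 0.90 (SD, n = 3), and 1.22 ± 0.29 (SE) over both genotypes (adjusted p = 0.44, limma), the highest percentile of any of these genes at 99.99 of all features. In liver the values were -0.53, 0.062, -0.33 and -0.34 in wildtype and -0.10, -0.69, 0.29 and -0.46 in Dll1 mice, below 0 in 6 of 8. In wildtype mice every spleen lay above every liver, and the organ difference was -1.53 ± 0.42 (SE) (adjusted p = 0.255, limma). In Dll1 mice it was -1.43 ± 0.42 (SE) (adjusted p = 0.524, limma). Both dye orientations were above 0 in both spleens, at 1.35 and 1.14 in wildtype and 1.93 and 0.54 in Dll1 mice for Cy5 and Cy3. Turned, Kdm5d lay at 0.10 in wildtype and 0.74 in Dll1 spleen, the value over both genotypes was 0.42 in spleen and 0.098 in liver, and the organ difference in wildtype mice was 0.086. Clones and pools are all labelled male. A single row carried Kdm5d.

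Kdm5c had its lowest group mean in Dll1 spleen. It had -2.97, -0.88 and -0.42 in the 3 Dll1 spleens with a value, all below 0, at -1.42 ± 1.36 (SD, n = 3), and 1 mouse carried most of that mean. Wildtype spleen had 0.12, 0.0035 and 1.01 in 3 mice, none of them below 0, at 0.38 ± 0.55 (SD, n = 3). The difference was -1.80 ± 0.67 (SE) (adjusted p = 0.871, limma), and -0.39 with the Cy3 arrays turned. In the livers Kdm5c lay at 0.011 ± 0.13 and 0.084 ± 0.067, and liver minus spleen in Dll1 mice was 1.51 ± 0.54 (SE) (adjusted p = 0.532, limma).

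Kdm1a, the demethylase LSD1 of the CoREST complex, lay at -0.61, -0.29 and -0.14 in the 3 Dll1 livers with a value and at -0.44, -0.025, 0.072 and -0.12 in wildtype liver. The mean over both genotypes was -0.24 ± 0.071 (SE) (adjusted p = 0.247, limma), with 6 of 7 mice below 0, and 0.29 with the Cy3 arrays turned. In wildtype spleen its 3 values, -0.16, 1.87 and -0.83, lay far apart. Kdm4b, below 0 in the 4 wildtype livers, lay at -0.087 ± 0.056 (adjusted p = 0.442, limma), and turned above 0 in each of them at 0.21. Kdm2b was below 0 in the 4 wildtype spleens at -0.047, -0.35, -0.14 and -0.36. Turned, Kdm2b lay above 0 in each of these spleens, at a mean of 0.14. Over both livers Kdm5b lay at 0.066 ± 0.033 (SE) (adjusted p = 0.426, limma) and at -0.13 turned. Kdm2a, Kdm4d and Kdm5b stood at an unadjusted p above 0.05 in each group with the titles' direction. Kdm2a and Kdm5b lay below 0 in every wildtype liver when turned, at -0.17 and -0.13, and Kdm4d above 0, at 0.17.

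**Figure D5:**
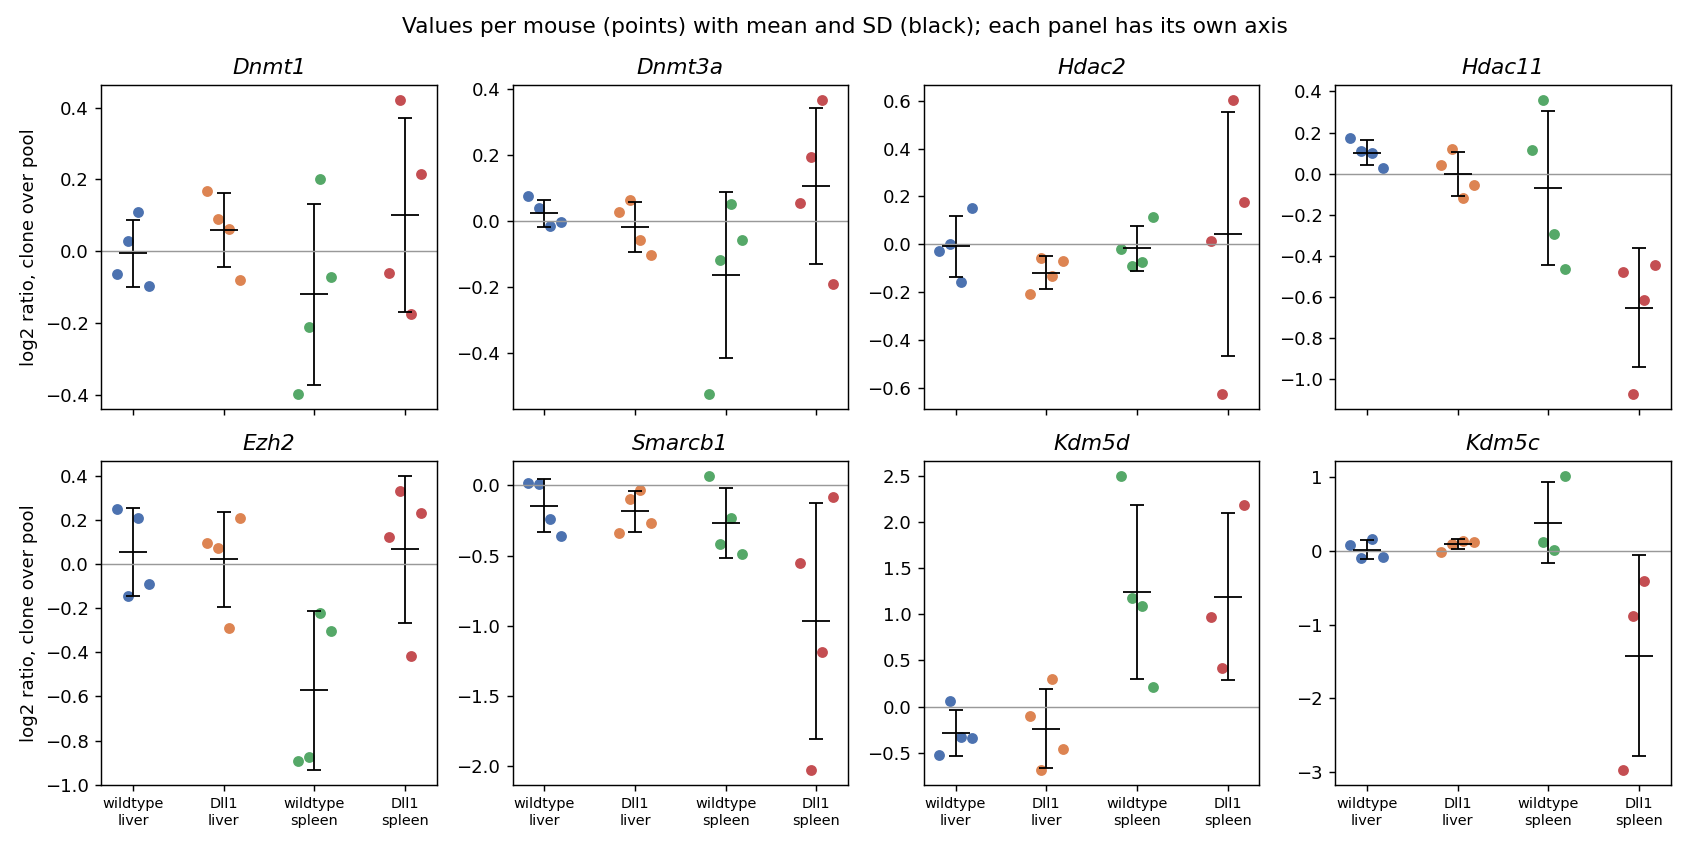
Log2 ratio, clone over pool, per mouse (points) with mean and SD (black) for 8 genes in the 4 groups; each panel has its own vertical axis. With the titles' direction Kdm5d lies above 0 in the 7 spleens with a value and Hdac11 below 0 in the 4 Dll1 spleens, while Dnmt1 and Dnmt3a straddle 0 in each group.

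With the titles' direction, arginine methyltransferases lay close to 0 in liver. Turned, Prmt3, Prmt7 and Prmt8 lay below 0 in every wildtype liver, at means of -0.48, -0.22 and -0.24. Prmt1 and Prmt6 then lay above 0 in every wildtype liver, at 0.23 and 0.19, and Prmt5 lay at -0.11 with mice on both sides of 0. Prmt8, known from neurons, had 0.013, 0.088, 0.15 and 0.21 in Dll1 liver and 0.20, -0.069, 0.19 and -0.0065 in wildtype liver, with 0.096 ± 0.039 (SE) over both genotypes (adjusted p = 0.34, limma) and -0.092 turned. Prmt3, which methylates a ribosomal protein, was at 0.12 ± 0.13 in Dll1 and 0.012 ± 0.075 in wildtype liver, with 0.066 ± 0.037 (SE) over both (adjusted p = 0.483, limma). For wildtype liver its orientation means were -0.47 in Cy5 and 0.50 in Cy3, and turned, the genotype difference was 0.57 (adjusted p = 0.000627 by limma). Prmt6 varied widely in spleen, with -3.08, -0.58, 0.86 and -0.13 in wildtype and 0.37, 0.40 and 1.43 in 3 Dll1 mice, whose mean was -0.22 turned. Liver minus spleen in Dll1 mice was -0.73 ± 0.27 (SE) for Prmt6 (adjusted p = 0.538, limma), and 0.28 turned. Prmt7 did so too, with 0.48, 0.072, -1.55 and 0.22 and 0.72, -1.56, 0.17 and -1.43. In both genes the difference between mice of 1 group exceeded the difference between the group means. Prmt1, the main enzyme of asymmetric arginine methylation, and Prmt5, that of symmetric methylation, stood at an unadjusted p above 0.05 in each group. Those p-values follow the titles' direction, and turned, Prmt1 lay above 0 in every mouse of each group.

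With the titles' direction the HP1 protein gene Cbx5, a reader of methylated lysine 9 of histone H3 with 3 rows, separated both organs in wildtype mice. Its values were 0.14, 0.02, 0.11 and 0.042 in liver, all above 0, and -0.28, -0.32, -0.23 and -0.097 in spleen, all below 0 (adjusted p = 0.777, limma). The organ difference was 0.31 ± 0.085 (SE) (adjusted p = 0.255, limma). Dll1 spleen had 0.52, 0.15, 0.17 and -0.053, each above every wildtype spleen, and the genotype difference was 0.43 ± 0.18 (SE) (adjusted p = 0.871, limma). Turned, these differences were 0.042 and 0.05. The 3 rows of Cbx5 disagreed in spleen, where 1 row had -0.68 in wildtype and 0.74 in Dll1 mice. The other rows had -0.023 and 0.003 in wildtype and 0.16 and -0.17 in Dll1 mice, so the spleen means rested mainly on 1 row. Cbx1 did not separate from 0 in any group.

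The Polycomb reader Cbx2 lay above 0 in the 4 wildtype spleens at 0.14, 0.39, 0.20 and 0.059 and below 0 in the 4 Dll1 spleens at -0.084, -0.21, -0.46 and -2.11. The difference was -0.91 ± 0.41 (SE) (adjusted p = 0.871, limma), and 1 Dll1 mouse supplied most of it. Turned, Cbx2 lay at -0.029 in wildtype and -0.525 in Dll1 spleen. Both groups then overlapped, and each held mice on both sides of 0. Of all features, 1.64% had every wildtype spleen above every Dll1 spleen and 1.52% the reverse. Among these genes it was Cbx2 in the first direction and Cbx5 and Smarcd2 in the second, or 1 and 2 of 57. Cbx7 had 0.31 ± 0.38 in wildtype and 0.063 ± 0.16 in Dll1 spleen.

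Chd4, the motor of the NuRD complex, had -0.39, -0.53 and -0.76 in the 3 Dll1 spleens with a value and -0.44, 0.60, 1.14 and 0.27 in wildtype spleen. All of the former and 1 of the latter lay below 0. The genotype difference was -0.95 ± 0.36 (SE) (adjusted p = 0.871, limma), and 0.43 with the Cy3 arrays turned. In liver Chd4 lay at 0.048 ± 0.046 and -0.048 ± 0.099, and liver minus spleen in Dll1 mice was 0.51 ± 0.15 (SE) (adjusted p = 0.524, limma). Chd1, which follows elongating RNA polymerase, was below 0 in the 4 Dll1 livers at -0.044, -0.05, -0.044 and -0.19. Turned, Chd1 lay above 0 in each of these livers, at a mean of 0.12. Chd1l and Chd8 stood at an unadjusted p above 0.05 in each group with the titles' direction. Chd8 lay above 0 in every liver when turned, at 0.12 in wildtype and 0.089 in Dll1 mice.

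Smarcb1, a core subunit of the SWI/SNF complex, had a mean below 0 in each of the 4 groups. The mice lay at 0.015, 0.012, -0.24 and -0.36 in wildtype liver, -0.34, -0.094, -0.034 and -0.27 in Dll1 liver, 0.069, -0.42, -0.23 and -0.49 in wildtype spleen and -0.55, -2.03, -1.19 and -0.086 in Dll1 spleen. In both Dll1 groups 4 of 4 mice were below 0, and in the wildtype groups 2 of 4 livers and 3 of 4 spleens. The mean over both genotypes was -0.16 ± 0.052 (SE) in liver (adjusted p = 0.258) and -0.62 ± 0.19 (SE) in spleen (adjusted p = 0.48, limma). Turned, these were -0.054 and 0.35, the latter with its sign reversed. A single row carried Smarcb1.

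Smarca4, the BRG1 motor of SWI/SNF, lay at -0.052, 0.13, -0.058 and 0.052 in wildtype liver, 0.07, 0.035, 0.10 and -0.045 in Dll1 liver, 0.17, 0.031, -0.15 and -0.11 in wildtype spleen and 0.79, -0.28, 0.21 and 0.98 in Dll1 spleen. Each group held values on both sides of 0, and turned, the means were -0.10, -0.031, 0.11 and 0.16. Smarcc1 and Smarcc2 are paralogous core subunits. Smarcc1 was above 0 in every wildtype spleen at 0.55, 0.57, 0.27 and 0.13 (adjusted p = 0.777, limma), while Smarcc2 lay at 0.052 ± 0.088 there. Smarcc2 lay above 0 in the 4 wildtype livers at 0.0047, 0.073, 0.01 and 0.061 and below 0 in the 4 Dll1 livers at -0.14, -0.073, -0.21 and -0.0047, a difference of -0.15 ± 0.06 (SE) (adjusted p = 0.934, limma) and of -0.13 turned. Smarcd1 was above 0 in the wildtype spleens at 0.31 ± 0.19, and Smarcd2 in the Dll1 spleens at 0.096, 0.23, 0.31 and 0.64 (adjusted p = 0.828, limma), and Smarcd2 lay at 0.17 ± 0.086 (SE) over both spleens (adjusted p = 0.663, limma), or 0.44 turned (adjusted p = 0.0148 by limma). Both subunits kept their sign when turned, at 0.28 and 0.57. Smarce1 lay at 0.0021 ± 0.027 and -0.046 ± 0.02 in the livers, and turned at -0.22, below 0 in every wildtype liver, and 0.033. Smarca2, Smarca5 and Smarcal1 stood at an unadjusted p above 0.05 in each group with the titles' direction. Smarca2 lay below 0 in every wildtype liver when turned, at -0.29, and above 0 in every Dll1 liver, at 0.11. Smarca5 then lay below 0 in every Dll1 liver, at -0.18.

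Between genotypes, 2 of 68 genes stood at an unadjusted p under 0.05 in liver, Smarcc2 and Kat7, against 4.87% of all features. Both were lower in Dll1 clones, where 3.11% of all features were. In spleen 7 of 66 did, against 4.67%. Of these, 2 were higher (Ezh2 and Cbx5), against 2.14%, and 5 lower (Chd4, Kdm5c, Hdac11, Kat14 and Katnal2), against 2.53%. None of them passed adjustment, with the smallest adjusted p at 0.934 in liver and 0.871 in spleen by limma. Of the 7, Chd4 and Kdm5c rested on 3 Dll1 mice. In liver every wildtype mouse lay above every Dll1 mouse for Kat7, Smarcc2 and Smarce1, or 3 of 67, against 2.41% of all features, and the reverse held for 0 of 67, against 0.928%. Turned, these were 11 and 13 of 67, against 18.6% and 19.4%, and in spleen 3 and 2 of 57, against 4.16% and 2.42%.

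Between organs of the same genotype, 7 of 67 genes stood at an unadjusted p under 0.05 in wildtype mice, against 10.1% of all features, and 7 of 67 in Dll1 mice, against 8.74%. These tests did not pair the liver and spleen of a mouse, and each pooled the spread of both organs. With the mouse as a replicate block, the number of all features past adjustment in wildtype mice went from 16 to 0, and that of these genes was 0 either way. The turned organ differences were not fitted with that block. Every liver lay above every spleen for Cbx5, Ezh2 and Kat8 in wildtype mice and for Cbx2, Hdac11 and Katnal2 in Dll1 mice. The shares were 3 of 63 and 3 of 59, against 3.81% and 3.37% of all features. Every spleen lay above every liver for Kdm5d, Mbd4, Setd5 and Smarcd1 in wildtype mice and for Smarcc2 in Dll1 mice, or 4 of 63 and 1 of 59, against 4.82% and 4.68%. Turned, liver lay above for 4 of 63 and 4 of 59, against 12.9% and 8.12%, and spleen for 15 of 63 and 3 of 59, against 17.9% and 7.10%. Hdac11 had the smallest p in Dll1 mice, with 0.65 ± 0.17 (SE) (adjusted p = 0.514, limma), and 0.047 turned.

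Of the 4 genes outside chromatin, Katnal2 lay below 0 in the 4 Dll1 spleens at -1.71, -0.20, -0.90 and -0.41 (adjusted p = 0.828, limma), at -0.44 ± 0.16 (SE) over both spleens (adjusted p = 0.542, limma) or -0.42 turned (adjusted p = 0.0448 by limma), and Katna1 had 1 wildtype liver far from the rest, with 0.0055, 0.045, 0.087 and -0.80. Without these 4 genes 0 genes passed in each of the 10 comparisons, and no median over the genes moved beyond its spread between mice.

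With the direction of the titles, other genes of the same complexes, on 6 lists, also had 0 genes past adjustment in each comparison. Between 0 and 3 genes per list stood at an unadjusted p under 0.05, where 4.67% to 13.2% of all features did, by comparison. In wildtype liver 3 of 24 Polycomb and trithorax partners stood at an unadjusted p under 0.05, all higher (Asxl2, Phf1 and Phc3), against 6.09% of all features, and 1 of 11 DNA methylation partners, Dppa3, lower, against 5.95%. Among acetyltransferase partners and readers Brd7 was the lowest in wildtype liver, at -0.33, -0.41, -0.069 and -0.18 (adjusted p = 0.239, limma), and Epc2 was above 0 in the 4 Dll1 livers at 0.27, 0.21, 0.055 and 0.18. Nsd3, a histone methyltransferase, lay at -0.17 ± 0.061 (SE, adjusted p = 0.784, limma) there. For Dll1 minus wildtype in liver Brd7 had 0.21 ± 0.084 (SE, adjusted p = 0.934, limma) and Phf8, a demethylase, -0.19 ± 0.082 (SE, adjusted p = 0.934, limma). Jmjd6, a demethylase relative, lay below 0 in 8 of 8 livers, at -0.30, -0.097, -0.16 and -0.098 in wildtype and -0.06, -0.26, -0.042 and -0.092 in Dll1 mice, with -0.14 ± 0.035 (SE) over both (adjusted p = 0.182, limma). Turned, wildtype liver had 8 of 11 DNA methylation partners, 14 of 24 Polycomb and trithorax partners, 6 of 12 deacetylase complex partners, 8 of 16 acetyltransferases and readers, 6 of 15 methyltransferases and demethylases and 7 of 12 remodellers past an adjusted p of 0.05 by limma, where 56.8% of all features passed. Per list of 11 to 24 genes tested, 4 to 10 passed for the mean of both livers, against 42.6% of all features. For the genotype difference in liver 5 to 8 passed, against 41.6%, and for the organ difference in wildtype mice 2 to 5, against 22.7%. The mean of both spleens had 1 to 3, against 13.2%, and wildtype spleen 0 to 1, against 1.54%. In the other 4 comparisons 0 passed, against at most 0.112%. Dppa3 was then at -0.35, Asxl2 at -0.081, Phf1 at 0.17, Phc3 at -0.24 and Brd7 at -0.096 in wildtype liver. In Dll1 liver Epc2 was at -0.027 and Nsd3 at -0.018. The genotype differences in liver were 0.088 for Brd7 and 0.078 for Phf8, and Jmjd6 lay at -0.019 over both livers.

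In wildtype spleen Rbbp4, a histone chaperone shared by PRC2, NuRD and Sin3, had -0.76, -0.57, -0.019 and -1.25, and in Dll1 spleen -0.24, -0.52 and -0.14 in 3 mice, below 0 in 7 of 7. The mean over both was -0.47 ± 0.15 (SE, adjusted p = 0.499, limma), and 0.14 with the Cy3 arrays turned. Sin3b, the scaffold of a deacetylase complex, had -1.02, -1.90 and -0.90 in 3 Dll1 spleens (adjusted p = 0.828, limma) and -0.095, -1.08, -0.74 and 0.57 in wildtype spleen. Ring1, a ubiquitin ligase of PRC1, had -1.50, -1.67, -1.29 and 0.026 in Dll1 spleen, where 3 mice lay far below the other. In both genes the groups overlapped. Liver minus spleen in Dll1 mice was 1.37 ± 0.29 (SE, adjusted p = 0.488, limma) for Sin3b and 0.98 ± 0.26 (SE, adjusted p = 0.514, limma) for Smyd2, a lysine methyltransferase. In wildtype mice it was -0.44 ± 0.11 (SE, adjusted p = 0.228, limma) for Mtf2, an accessory protein of PRC2 that lay above 0 in wildtype spleen, and 0.53 ± 0.14 (SE, adjusted p = 0.228, limma) for Uhrf1. For Dll1 minus wildtype in spleen Tada2a, a subunit of acetyltransferase complexes, had -0.55 ± 0.19 (SE, adjusted p = 0.871, limma) and Ring1 -1.06 ± 0.38 (SE, adjusted p = 0.871, limma). Turned, the organ differences were 0.49 for Sin3b and 0.44 for Smyd2 in Dll1 mice, and 0.13 for Mtf2 and -0.50 for Uhrf1 in wildtype mice. That of Uhrf1 had an adjusted p = 0.0105 by limma, in a fit that did not pair the organs of a mouse. The genotype differences in spleen were -0.64 for Tada2a and -0.26 for Ring1. Over the 11 to 24 genes tested per list, the median lay between -0.10 and 0.05 in wildtype spleen.

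Marker genes of the organs' cell types were also away from 0 in some groups. The hepatocyte list lay below 0 in both livers, with medians by mouse of -0.32 to -0.085 in wildtype and -0.23 to -0.057 in Dll1 mice. In spleen B cell genes lay at 0.15 to 0.27 and -0.011 to 0.26, T cell genes at 0.012 to 0.19 and 0.005 to 0.20, and neutrophil and macrophage genes at -0.042 to 0.12 and -0.45 to 0.049 in wildtype and Dll1 mice. Turned, the medians over the genes were 0.064 and 0.0031 for hepatocyte genes in wildtype and Dll1 liver, with 6 and 7 of 14 below 0. In spleen they were 0.036 and 0.01 for B cell genes, 0.21 and 0.19 for T cell genes and 0.10 and 0.038 for neutrophil and macrophage genes. Their part in the values of the chromatin genes was not tested.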

How the data were processed

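The deposited values are log2 ratios of both channels per probe and array, with base and scale read from the values; their direction is known only from the order of words in the titles. Normalisation, software and background correction were not given in the sources used here. Array medians ran from -0.067 to 0.079. Values above 9 in size (1183 values on 883 probes) were constants and were set to missing. Row numbers were named by the platform probe 11 positions earlier. Both dye-swapped arrays of a mouse were averaged, a probe needing both, then the probes of a gene. limma 3.58.1 (lmFit and eBayes, R 4.3.3) tested each feature with at least 3 mice per group, with Benjamini-Hochberg adjustment over all features, using only the groups compared; the script was tested on simulated data. Replicates are separate mice. Liver and spleen came from the same animals, by the labels' mouse identity, which is the pairing behind the replicate block. All other organ tests left this pairing out.

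The genes and lists were chosen with earlier results of these data known. Genes named with values were a fixed set (Dnmt1, Dnmt3a, Hdac2, Sirt1, Ezh2 and Smarca4 among those measured), in each comparison the 3 with the smallest p on either side of 0, any past an adjusted p of 0.05, those needed to account for the rule, and the 2 genes of the other chromatin lists with the smallest p. Genes outside this rule (such as Rbbp4, Cbx2, Kat14, Prmt7 and those named for all mice on 1 side) were chosen after their values were seen. Alternatives were the turned Cy3 arrays, constants kept, centred or scaled arrays, other row numbers, single arrays or probes, all 4 mice, other fits, a replicate block and leaving out each mouse. Promoter sequences were read from RefSeq, GRCm38.p6.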

Additional observations from a re-analysis of the deposited data

Results flagged for a closer look

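A single mouse stood apart from the other 3 of its group for 2 of 120 gene and group pairs, where chance sets such a mark in about 1 of 20 groups. Both lay in Dll1 liver and in genes of the SWI/SNF complex: 1 mouse had 0.153 for Smarcc1, and 1 mouse had 0.193 for Smarcd2.

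In 6 of 246 pairs of groups every mouse of one group lay above 0 and every mouse of the other below, against 1.32% of all features, and with the Cy3 arrays turned in 16 of 246, against 6.75%. Between genotypes these were Smarcc2 in liver, with a difference of -0.146, and Cbx2 in spleen, with -0.915. Between organs they were Cbx5 at 0.309, Mbd4 at -0.245 and Setd5 at -0.381 in wildtype mice, and Smarcc2 at -0.317 in Dll1 mice. With the titles' direction none of these differences passed an adjusted p of 0.05 by limma. Turned, of these only Smarcc2 in liver still had every mouse of one group above 0 and of the other below. The spleen means of Cbx5 and Setd5 rested mainly on 1 row each.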

How the results depend on the processing

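Of 172 recomputed counts of the rule's genes past adjustment, 165 equalled the first count, and none of the 68 genes passed in any comparison when 1 mouse was left out. The 7 exceptions came from turning the Cy3 arrays and from a fit over all mouse and organ values. With the Cy3 arrays turned the genes past adjustment numbered 37 in wildtype liver, 28 for the mean of both livers, 6 for that of both spleens, 25 for the genotype difference in liver and 17 for the organ difference in wildtype mice. The numbers of features past adjustment were 9631, 7202, 2067, 7035 and 3736 there, 19 in Dll1 liver and 254 in wildtype spleen. The median over the genes became 0.045 and 0.048 in wildtype and Dll1 liver, 0.13 in wildtype spleen, 0.13 for the mean of both spleens and -0.10 for the organ difference in wildtype mice. This reading turned the sign of 40 of 82 values of named genes. For 27 of these 40, the first value stood at an unadjusted p under 0.05 or the turned value passed adjustment, and these follow. In wildtype liver, Dnmt1 lay at 0.30, Hdac11 at -0.44, Sirt2 at -0.20, Kdm5d at 0.19, Mbd1 at 0.26 and Kdm4b at 0.21. In Dll1 liver, Hdac2 lay at 0.088, Kdm1a at 0.093 and Smarcb1 at 0.03. In wildtype spleen, Ezh2 lay at 0.45. In Dll1 spleen, Smarcb1 lay at 0.36. For the mean of both livers, Prmt8 lay at -0.092, Kdm5b at -0.13, Prmt3 at -0.20, Kdm1a at 0.29 and Kdm5d at 0.098. For the mean of both spleens, Smarcb1 lay at 0.35. For the genotype difference in liver, Kat8 lay at -0.33, Kat7 at 0.28 and Dnmt3l at 0.65. For the genotype difference in spleen, Chd4 lay at 0.43 and Hdac11 at 0.025. For the organ difference in wildtype mice, Ezh2 lay at -0.42, Kdm5d at 0.086 and Mbd4 at 0.55. For the organ difference in Dll1 mice, Chd4 lay at -0.16 and Prmt6 at 0.28. Which reading is right was not tested beyond the correlations given.

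With rows named by their own number instead of the shifted one, 34 of 80 named values changed sign, 17 of them from an unadjusted p under 0.05. In wildtype liver, Hdac11 lay at -0.013. In Dll1 liver, Kdm1a lay at 0.0073 and Smarcb1 at 0.049. In wildtype spleen, Kdm5d lay at -0.024 and Smarcc1 at -0.11. In Dll1 spleen, Hdac11 lay at 0.33 and Smarcb1 at 0.011. For the mean of both livers, Prmt8 lay at -0.012 and Smarcb1 at 0.047. For the mean of both spleens, Smarcb1 lay at 0.025 and Hdac11 at 0.13. For the genotype difference in liver, Smarcc2 lay at 0.016. For the genotype difference in spleen, Chd4 lay at 0.40 and Hdac11 at 0.41. For the organ difference in Dll1 mice, Hdac11 lay at -0.37, Chd4 at -0.14 and Prmt6 at 0.69. The median of wildtype liver was 0.0037, and 10 features passed for the organ difference in wildtype mice. Other genes' values then stand under these names.

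The fit over all mouse and organ values called 6 genes in Dll1 spleen and 3 for the mean of both spleens. It called 0 features in wildtype liver, 113 in wildtype spleen, 1159 in Dll1 spleen, 0 and 710 for the means of both livers and both spleens, 87 for the genotype difference in spleen, and 0 and 14 for the organ differences in wildtype and Dll1 mice. A fit over each organ called 14 features in wildtype liver; it and the trimmed list without the 4 genes outside chromatin were added after seeing the data. With the mouse as a replicate block, 0 features passed for the organ difference in wildtype mice, and no other call changed.

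The 26 features of wildtype liver became 6 with the constant values kept, 1 with arrays scaled to 1 spread (median of the genes 0.0057), 16 with mice measured on a single array kept, and 51 with each row tested alone (median 0.017). The 29 of the mean of both livers became 19, 8, 19 and 46 in the same order and 19 with arrays centred. The 16 of the organ difference in wildtype mice became 10 with 1 spread and 0 with single arrays kept. Leaving out 1 mouse at a time gave from 0 to 51 features in wildtype liver, 11 to 45 for the mean of both livers, 0 to 1 for the genotype difference in liver and 0 to 0 for the organ difference in wildtype mice. Wildtype liver had 0 without mouse 1, 7 without mouse 3, 6 without mouse 4 and 51 without mouse 2. Requiring all 4 mice and using current symbols changed no call of the rule's genes. Signal over background was not analysed here, so how faint a spot was is unknown, and 4 mice per group limit the precision.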
